A study of Mus musculus with 41 samples.

Results

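Transcript levels were compared between 2 lines of E14 mouse embryonic stem cells labelled as genetically depleted for Esrrb, called KO2 and KO3, and 1 line labelled as wild type for Esrrb (WT), after 1 day in AloXR medium. The comparison rests on 12 of the 41 libraries of the study, chosen by their labels as 4 KO2, 4 KO3 and 4 WT libraries. E14 cells are a line derived from the mouse blastocyst. All 3 lines were grown on gelatin in N2B27 medium with 2iL, which is the GSK3 inhibitor CHIR99021, the MEK inhibitor PD0325901 and the cytokine LIF, and were then plated on fibronectin in N2B27 alone for 1 day. They next spent 1 day in AloXR, which combines activin A with XAV, an inhibitor of tankyrase, and with BMS439, an inverse agonist of retinoic acid receptors. The remaining libraries hold the same lines in 2iL and after 3 and 5 days in AloXR. In the library titles the WT line is named PGG, and the labels do not say what PGG means. It is not stated which part of Esrrb was removed, whether KO2 and KO3 are single clones, or whether the libraries of a group came from separate cultures. The p-values below therefore measure the spread between libraries, which may be technical, and they hold no spread between lines of 1 genotype.

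Esrrb is an orphan nuclear receptor that binds DNA as part of the transcription factor network of naive pluripotency, the state that 2iL medium sustains. When the inhibitors are withdrawn, naive factors are normally shut down and cells pass into formative pluripotency, a state with high Otx2 and de novo DNA methyltransferases from which cells can respond to signals for the germ layers and germ cells. In AloXR, activin sustains that state while Wnt signalling and retinoic acid receptors are blocked.

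RNA was read by QuantSeq, which counts tags near the 3′ end of polyadenylated transcripts, and levels are given in CPM, assigned reads scaled to a sum of 1000000 in each library. The 12 libraries held 3668018 to 5714257 assigned reads and detected 18421 to 19653 genes. A count of 0 allows up to 0.525 to 0.818 CPM, which covers counting error only. KO2 libraries held 3668018 to 4349122 reads, KO3 libraries 4427932 to 4667588 and WT libraries 4691681 to 5714257, so that every depleted library was shallower than every WT library. Mitochondrially encoded transcripts took 3.81% ± 0.46 of reads in KO2, 4.3% ± 0.25 in KO3 and 3.1% ± 0.11 in WT (SD, n = 4 each). The genes mt-Co2, mt-Co3, mt-Atp8 and mt-Nd4l averaged 0 CPM in all 3 lines, so this share holds no reads of them. The part that depth and mitochondrial share have in the results was not tested. Replicate libraries correlated across genes with Pearson's r of 0.9771 to 0.9877 in KO2, 0.9849 to 0.9897 in KO3 and 0.988 to 0.9914 in WT (genes are not independent replicates). No pair of libraries agreed within sampling noise (chi-square per degree of freedom between 1.6 and 9.98). Libraries 1 and 2 were the least different pair in KO2 and in KO3, and libraries 3 and 4 in WT.

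Esrrb itself (ENSMUSG00000021255, chr12:86361117-86521628, GRCm38) stood at 5.52, 4.83, 1.86 and 1.64 CPM in the KO2 libraries, at 41.4, 38.5, 26.1 and 29.4 CPM in the KO3 libraries and at 17.3, 13.1, 17.7 and 12.1 CPM in the WT libraries. Every KO2 library lay below every WT library, and every KO3 library lay above every WT library. On the log2(CPM + 1) scale the difference from WT was -1.95 in KO2 and 1.11 in KO3, and each had p = 0.0286 in a two-sided exact permutation test, the smallest p that 70 splits allow. In 2iL the order was different, with means of 54.6 CPM in KO2, 135 CPM in KO3 and 375 CPM in WT. A 3′ tag outside the deleted part does not check a deletion, so KO2 and KO3 are named by their labels. For KO3 the day 1 tags lay above WT and do not show the depletion that its label gives. As the deleted part is not stated, these tags cannot contradict that label either. Esrra, the relative that binds the same DNA element, averaged 6.48 CPM in KO2, 6.02 CPM in KO3 and 8.06 CPM in WT (log2 difference -0.31 ± 0.17 SE, limma adjusted p = 0.212).

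**Figure D1:**
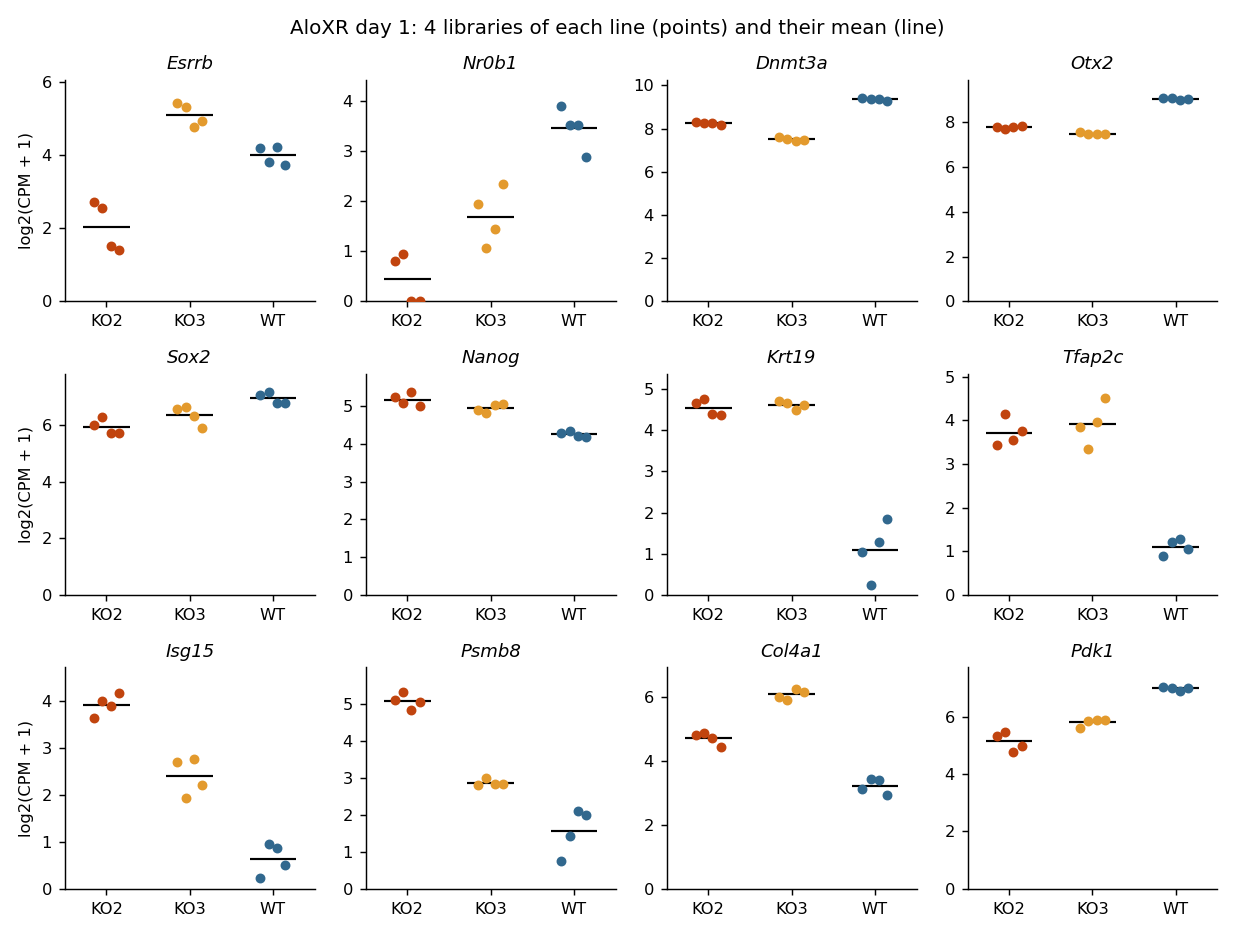
Levels of 12 genes in each day 1 library as log2(CPM + 1), with 4 points for each of KO2, KO3 and WT and a line at the mean of each group. KO3 lies above WT for Esrrb, both depleted lines lie below WT for Nr0b1, Dnmt3a, Otx2, Sox2 and Pdk1, and both lie above WT for Nanog, Krt19, Tfap2c, Isg15, Psmb8 and Col4a1.

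With the depleted lines averaged at equal weight, 2005 of 16967 tested genes passed a limma adjusted p under 0.05 with a difference of at least 1.5-fold in the same direction in both lines, which is the meaning of "called", "rose" and "fell" below. These were 1071 genes higher (6.31%) and 934 lower (5.5%) in the depleted lines. At an unadjusted p under 0.05 the number was 5418. Of the called genes 47 were at least 4-fold higher and 13 at least 4-fold lower on the log2(CPM + 1) scale, which understates the change of low genes, and 934 passed in each line alone. All 8 depleted libraries lay above all 4 WT libraries in 794 genes (4.68%) and below them in 1068 (6.29%), including 519 of the genes that rose and 589 of those that fell. Fitting only libraries 1 and 2 of each line gave 1146 calls, and only libraries 3 and 4 gave 1283. Against WT, KO2 alone had 6.75% of genes higher and 6.72% lower, and KO3 alone 8.5% higher and 6.93% lower, and these comparisons share the 4 WT libraries. When each difference was taken relative to its neighbours on the chromosome, 1222 genes were higher and 672 lower (64.5% of calls higher, and 53.4% without that step). A long stretch of chromosome 14, described below, was low in both depleted lines. In bulk RNA, fewer cells of a type and less RNA per cell cannot be told apart.

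**Figure D2:**
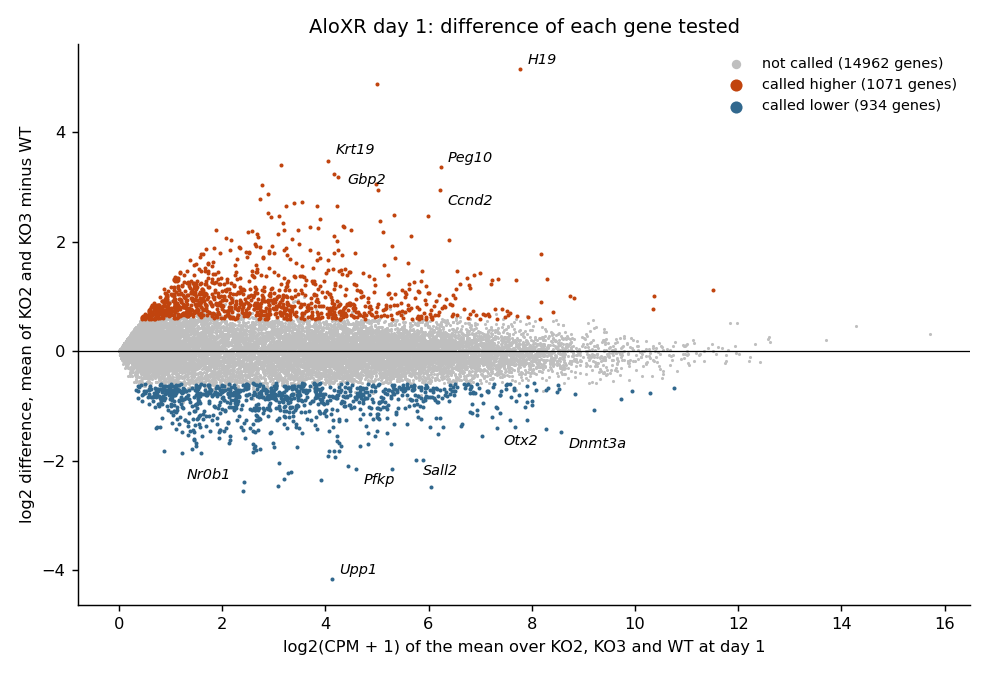
Difference between the depleted lines and WT (log2, equal weight for KO2 and KO3) against the mean level over the 3 groups as log2(CPM + 1), for 16967 genes. Coloured points are the 1071 genes called higher and the 934 called lower, and grey points are the genes not called.

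The largest rise was that of H19 (chr7:142575529-142578143), the maternally expressed imprinted long non-coding RNA, which is abundant in extraembryonic tissue. It stood at 302, 294, 347 and 376 CPM in KO2, at 194, 178, 441 and 454 CPM in KO3, against 6.13, 6.73, 10.3 and 8.31 CPM in WT. KO3 libraries 1 and 2 had less than KO3 libraries 3 and 4, and every depleted library was far above WT (log2 difference 5.14 ± 0.39 SE, limma adjusted p = 1.82e-11). Peg10, a retrotransposon-derived imprinted gene needed for the placenta, stood at 83.6, 103, 73.6 and 53.2 CPM in KO2, at 121, 113, 154 and 156 CPM in KO3, against 10.9, 12.7, 8.25 and 5.54 CPM in WT (3.36 ± 0.23, adjusted p = 7.66e-13). Ccnd2, a D-type cyclin of the G1 phase, stood at 86.9, 81.4, 43.8 and 37.6 CPM in KO2, at 204, 213, 83.6 and 88.1 CPM in KO3, against 14, 11.8, 7.63 and 10.2 CPM in WT. In all 3 lines Ccnd2 was higher in libraries 1 and 2 than in the average of libraries 3 and 4, and the groups did not overlap with WT (2.94 ± 0.23, adjusted p = 1.09e-11). The other leading rises were Krt19, Ifitm7, Gbp2, Gbp2b, Ccn2, Sct, Anxa3, Tfap2c and the predicted genes Gm21761, Gm8994, Gm20767 and Gm21818, with log2 differences between 2.71 and 4.88. Gbp2, Gbp2b and the predicted genes belong to families or have near copies among which reads could be split, so their values are uncertain.

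The largest fall was that of Upp1 (chr11:9118103-9136170), the uridine phosphorylase of pyrimidine salvage. It stood at 2.01, 2.76, 0.233 and 1.64 CPM in KO2, at 2.18, 1.97, 1.29 and 1.81 CPM in KO3, against 45.3, 41.7, 54.7 and 43.1 CPM in WT (-4.16 ± 0.24, adjusted p = 8.8e-18). The lines were alike in this gene and far from WT. Nr0b1, an X-linked orphan nuclear receptor of the naive network, stood at 0.753, 0.92, 0 and 0 CPM in KO2, at 2.83, 1.09, 1.71 and 4.07 CPM in KO3, against 14, 10.5, 10.5 and 6.39 CPM in WT (-2.39 ± 0.26, adjusted p = 7.9e-10). It was at or near the detection floor in KO2, and KO3 exceeded KO2 by 1.26 (adjusted p = 0.00139). Fut9, the fucosyltransferase that makes the SSEA-1 surface epitope of mouse stem cells, stood at 2.51, 3.45, 3.73 and 1.91 CPM in KO2, at 3.7, 3.28, 3.64 and 3.61 CPM in KO3, against 17.7, 13.8, 14.2 and 19.6 CPM in WT (-2.04 ± 0.18, adjusted p = 6.39e-12). The other leading falls were Zfp951, Ndrg2, Efhc2, Zfp988, Cox7b2, Car14, Pfkp, Rpl39l, Slc35d3, Sall2, Ldhb and Xlr3c, with log2 differences between -2.54 and -1.99. Xlr3c, of an X-linked multicopy family, was low in KO3 but not called in KO2 alone (-4.48 in KO3 and -0.46 in KO2).

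Naive pluripotency genes did not move as 1 block. Of 26 listed and tested, 4 rose and 2 fell, with a median difference of 0.04 against 0.015 over all genes. Nanog, the homeodomain factor of the naive state, stood at 36.4, 32.9, 40.1 and 30.8 CPM in KO2, at 28.9, 27.1, 31.3 and 32.3 CPM in KO3, against 18.4, 19.3, 17.5 and 17.1 CPM in WT. All 8 depleted libraries were above all WT libraries (0.8 ± 0.15, adjusted p = 5.47e-05). Klf2, a zinc finger factor that helps hold the naive state, stood at 18.6, 17, 21.4 and 17.7 CPM in KO2, at 10, 9.41, 8.36 and 7.68 CPM in KO3, against 5.78, 6.17, 6.6 and 4.69 CPM in WT (1.04 ± 0.19, adjusted p = 8.03e-05). KO2 was the highest of the 3 lines, and KO3 alone was not called against WT (0.54, adjusted p = 0.0791). Dppa3, a maternal factor that counters methylation maintenance, stood at 80.6, 67.8, 40.3 and 61.1 CPM in KO2, at 39.2, 42.7, 42.4 and 42 CPM in KO3, against 14.7, 16.8, 12 and 16 CPM in WT (1.7 ± 0.35, adjusted p = 0.000526). Tbx3, a T-box factor of the naive network, averaged 1.19 CPM in KO2, 4.71 CPM in KO3 and 0.675 CPM in WT, and its call came from KO3 (the difference in KO2 alone was 0.37, limma adjusted p = 0.404).

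Beside Nr0b1 the naive gene that fell was Fgf4, the FGF ligand made by the cells themselves, at 67, 60, 44.3 and 56.4 CPM in KO2 and 72.3, 80.7, 65.8 and 68 CPM in KO3, against 126, 122, 115 and 115 CPM in WT. The groups did not overlap (-0.9 ± 0.15, adjusted p = 7.43e-06). Klf4 averaged 4.7 CPM in KO2, 6.34 CPM in KO3 and 4.16 CPM in WT, Tfcp2l1 5.77, 9.26 and 6.5 CPM, and Zfp42 12.9, 20.1 and 20.9 CPM in the same order, and none of these was called. Klf5 lay on either side of WT, at 53.7 to 82.3 CPM in KO2 and 175 to 208 CPM in KO3, against 99.2 to 154 CPM in WT. KO3 was above KO2 by 1.47 (adjusted p = 4.79e-10).

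Of 14 core pluripotency genes 3 fell and none rose at the thresholds, with a median of -0.34. Sox2, the partner of the POU factor Pou5f1, stood at 64, 76.8, 51.5 and 52.1 CPM in KO2, at 94.2, 99.7, 79.1 and 58.9 CPM in KO3, against 133, 143, 109 and 109 CPM in WT. All 8 depleted libraries lay below all WT libraries (-0.8 ± 0.21, adjusted p = 0.00461). Lin28a, the RNA-binding protein that blocks let-7 maturation, averaged 130 CPM in KO2, 102 CPM in KO3 and 193 CPM in WT (-0.75 ± 0.18, adjusted p = 0.00244). Mycn, a Myc family transcription factor, averaged 105 CPM in KO2, 99.9 CPM in KO3 and 178 CPM in WT (-0.79 ± 0.22, adjusted p = 0.00816). Sox2 was not called in KO3 alone (-0.59, adjusted p = 0.0713) and Lin28a not in KO2 alone (-0.58, under the fold required). With libraries 1 and 2 of each line no core gene was called (0 of 14), and Sox2 and Mycn were not called with libraries 3 and 4 either. Pou5f1 itself averaged 10.4 CPM in KO2, 13.2 CPM in KO3 and 13.4 CPM in WT and was not called. The 7 markers of embryonic stem cells or epiblast summed to 1310 to 1520 CPM in KO2 and 1510 to 1700 CPM in KO3, against 1840 to 1890 CPM in WT. The markers of the labelled cell type were thus present in every library, at a lower sum in the depleted lines.

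Among 31 formative genes 10 fell and 1 rose (0 without WT library 3 or 4), with a median of -0.3. With each gene set against its chromosomal neighbours, 6 fell. Dnmt3a, a de novo DNA methyltransferase, stood at 311, 309, 305 and 287 CPM in KO2, at 196, 184, 169 and 176 CPM in KO3, against 674, 662, 651 and 626 CPM in WT. The 3 lines formed 3 separate levels (-1.47 ± 0.09, adjusted p = 3.94e-17), and KO3 was below KO2 by 0.74 (difference -0.74, adjusted p = 7e-07). Otx2 (chr14:48657677-48673819), the homeodomain factor that drives the formative programme, stood at 223, 205, 221 and 228 CPM in KO2, at 191, 177, 175 and 175 CPM in KO3, against 545, 542, 517 and 524 CPM in WT. It was well below WT in all 8 libraries (-1.42 ± 0.17, adjusted p = 1.04e-07). Otx2 lies in the chromosome 14 stretch described below, and relative to its neighbours its difference was -0.5 (adjusted p = 0.0375), under the fold required.

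Sall2, a zinc finger gene on the same chromosome, and Car14, a carbonic anhydrase of the cell surface, had differences of -1.99 and -2.2. Car14 averaged 7.55 CPM in KO2, 1.2 CPM in KO3 and 18.5 CPM in WT. Zic5, a zinc finger factor of the epiblast, averaged 103 CPM in KO2, 89.4 CPM in KO3 and 163 CPM in WT (-0.76 ± 0.11, adjusted p = 6.13e-07). Fgf5, the classic ligand of the post-naive epiblast, stood at 77.7 to 92.9 CPM in KO2 and 55.1 to 72 CPM in KO3, against 102 to 114 CPM in WT. Its groups did not overlap, but its difference of -0.56 stayed under the fold required. Pou3f1, the POU factor that pairs with Otx2 in formative cells, averaged 414 CPM in KO2, 370 CPM in KO3 and 387 CPM in WT and was not called. Dnmt3b, the other de novo methyltransferase, averaged 1580 CPM in KO2, 1320 CPM in KO3 and 2290 CPM in WT (-0.66 ± 0.23, adjusted p = 0.0348). That call was lost without any 1 of 8 libraries (WT 1, 2, 3 or 4, KO2 2 or 4, KO3 1 or 2), at adjusted p of 0.0504 to 0.0981. Relative to its chromosomal neighbours Dnmt3b was not called either. Of 12 genes of DNA methylation only Dnmt3a and Dnmt3b were called at day 1.

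**Figure D3:**
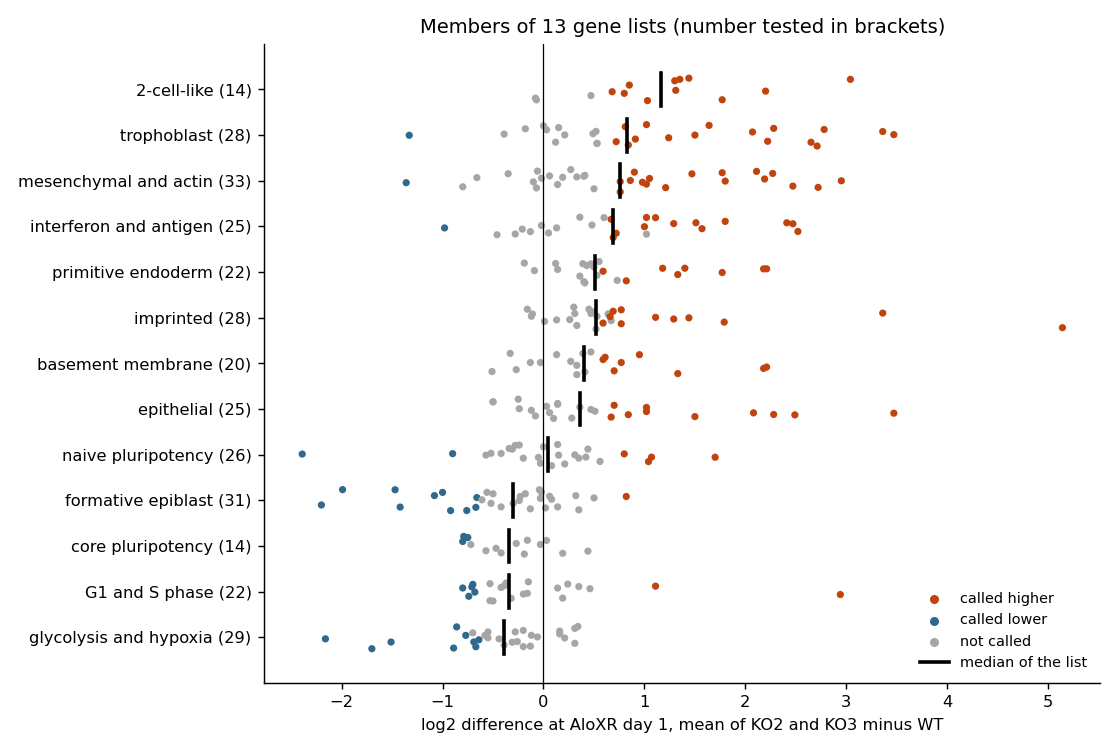
Difference between the depleted lines and WT at day 1 (log2) for the tested members of 13 gene lists, 1 point per gene, coloured by call, with a black bar at the median of each list. The trophoblast, mesenchymal, interferon and 2-cell lists have medians of 0.83, 0.76, 0.69 and 1.16, and the formative and glycolysis lists medians of -0.3 and -0.39.

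Ligands and receptors of signalling pathways moved singly. Of 16 tested FGF ligands, receptors and co-receptors 4 fell and 2 rose, or 1 without WT library 4. The ligands Fgf4, Fgf15 and Fgf3 fell. Fgf15 averaged 30.2 CPM in KO2, 21.4 CPM in KO3 and 48.7 CPM in WT (-0.92 ± 0.2, adjusted p = 0.000603). Among 21 genes that respond to ERK, the kinase downstream of FGF, 4 rose and 2 fell, and 1 fell without WT library 1, 3 or 4, KO2 library 3 or 4, or KO3 library 1 or 3. Dusp5, a nuclear phosphatase of ERK, stood at 10.8, 12.9, 13 and 9 CPM in KO2, at 18.3, 19.5, 16.7 and 12.6 CPM in KO3, against 5.43, 5.61, 5.36 and 5.12 CPM in WT (1.21 ± 0.16, adjusted p = 1.22e-07). Every depleted library lay above WT. Dusp6, the cytoplasmic ERK phosphatase, averaged 348 CPM in KO2, 373 CPM in KO3 and 285 CPM in WT and was not called. Etv4, an ETS factor induced by FGF, averaged 15.3 CPM in KO2, 37 CPM in KO3 and 24.2 CPM in WT, with KO3 above KO2 by 1.22 (adjusted p = 3.79e-05).

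In the activin and Nodal list 1 of 19 tested genes rose and 2 fell, with a median of 0.03. That is 15.8% called, close to the 11.8% of all tested genes, so the count does not set the list apart. Lefty1, the secreted Nodal antagonist, stood at 128, 124, 187 and 169 CPM in KO2, at 105, 117, 103 and 126 CPM in KO3, against 40.1, 35.5, 66 and 68.4 CPM in WT. No depleted library reached down to the WT range (1.35 ± 0.34, adjusted p = 0.005). The call of Lefty1 was lost with libraries 1 and 2 and with libraries 3 and 4, at differences of 1.07 to 1.62. Skil, a feedback inhibitor of SMAD proteins, stood at 48.3 to 70.6 CPM in KO2 and 51.4 to 67.3 CPM in KO3, against 92.4 to 134 CPM in WT (-0.86 ± 0.12, adjusted p = 2.18e-07). Nodal itself averaged 32.7 CPM in KO2, 26 CPM in KO3 and 18.6 CPM in WT, above WT in all 8 libraries but not called (0.62 ± 0.24, adjusted p = 0.0655).

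In the BMP pathway the ligand Bmp4 and the target Id2 went opposite ways. Bmp4 averaged 4.09 CPM in KO2, 2.08 CPM in KO3 and 9.06 CPM in WT (-1.33 ± 0.24, adjusted p = 2.91e-05). It lies on chromosome 14 and was not called relative to its neighbours (-0.6, adjusted p = 0.0637). Id2, an inhibitor of basic helix-loop-helix factors, stood at 28.1, 38.6, 32.4 and 50.4 CPM in KO2, at 70.1, 61.5, 63.6 and 62.1 CPM in KO3, against 11.2, 10.8, 13.6 and 12.6 CPM in WT. KO3 had the most, and every depleted library was above WT (1.93 ± 0.2, adjusted p = 2.89e-09). In the list as a whole 5 of 20 rose and 1 fell, and 3 rose without WT library 2. Lifr, the receptor subunit for LIF, stood at 2.73 to 7.78 CPM in KO2 and 6.21 to 14.6 CPM in KO3, against 28.3 to 32.5 CPM in WT (-1.92 ± 0.27, adjusted p = 1.32e-06). Among 18 genes of the LIF and STAT3 pathway 1 fell and 1 rose (11.1% called, against 11.8% of all tested genes). None rose without WT library 1 or 2, KO2 library 3 or 4, or KO3 library 4. No member of the retinoic acid list was called among 16 tested.

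Of 32 trophoblast genes 28 were tested, 16 rose and 1 fell (Bmp4), with a median of 0.83. Krt19, Krt8 and Krt18 are the keratins of simple epithelia, including trophectoderm. Krt8 stood at 40.2, 33.3, 21.2 and 34.9 CPM in KO2, at 22.2, 15.7, 20.8 and 23.9 CPM in KO3, against 4.38, 5.42, 4.75 and 3.41 CPM in WT (2.28 ± 0.16, adjusted p = 1.59e-15). Tfap2c, an AP-2 factor of trophoblast and germ cells, stood at 9.79, 16.8, 10.7 and 12.5 CPM in KO2, at 13.3, 9.19, 14.6 and 21.9 CPM in KO3, against 0.875, 1.31, 1.44 and 1.07 CPM in WT. Both genes were separate from WT in every library, and for both the depleted lines overlapped each other. Gata3, a GATA factor of trophectoderm, averaged 2.21 CPM in KO2, 5.08 CPM in KO3 and 0.388 CPM in WT (1.64 ± 0.27, adjusted p = 9.1e-06). Plac1, a placental membrane protein, averaged 3.34 CPM in KO2, 2.2 CPM in KO3 and 0.541 CPM in WT (1.24 ± 0.27, adjusted p = 0.000506). Sct, the secretin hormone, averaged 10.2 CPM in KO2, 6.4 CPM in KO3 and 0.37 CPM in WT.

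Cdx2, Elf5 and Eomes, factors that define trophoblast stem cells, were not called. Cdx2 reached at most 1.16 CPM in any depleted library and was at 0 in all 4 WT libraries, and Elf5, which did not pass the filter, reached at most 0.437 CPM. Eomes averaged 9.09 CPM in KO2, 11.4 CPM in KO3 and 9.39 CPM in WT. The 6 fixed trophoblast markers summed to 14.8 to 18.4 CPM in KO2 and 16.9 to 24.8 CPM in KO3, against 5.98 to 13.5 CPM in WT, and 3 of the 5 tested rose. The part of any trophoblast-like cells in these sums was not tested.

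Of 25 primitive endoderm genes, 22 were tested, 8 rose and none fell at the thresholds. The collagen chains Col4a1 and Col4a2 led the list, with Dab2, an endocytic adaptor of that lineage. Dab2 stood at 5.02, 3.45, 8.85 and 5.73 CPM in KO2, at 4.79, 5.69, 31.7 and 30.3 CPM in KO3, against 1.4, 2.43, 2.68 and 1.07 CPM in WT. KO3 libraries 3 and 4 stood apart from KO3 libraries 1 and 2. The same libraries were the high ones for Gata6, the GATA factor of primitive endoderm, at 1.26, 0.69, 1.63 and 0 CPM in KO2, at 2.83, 2.41, 8.57 and 8.58 CPM in KO3 and at 0, 1.12, 0.206 and 0.639 CPM in WT. Its call came from KO3 (2.04 in KO3 and 0.31 in KO2). Fitted on libraries 1 and 2 alone, neither Dab2 nor Gata6 was called. The 5 defining markers summed to 0.818 to 3.73 CPM in KO2 and 4.37 to 15 CPM in KO3, against 1.23 to 2.62 CPM in WT. Gata4, Sox17 and Pdgfra were not called, and Sox7 did not pass the filter. The part of primitive endoderm cells in these values was not tested.

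The epithelial and basement membrane genes that were called at day 1 all rose. Of 25 epithelial genes 10 rose and none fell at the thresholds, with a median of 0.36. Perp, a desmosomal protein and p53 target, stood at 56.2, 59.3, 42.9 and 42.5 CPM in KO2, at 72.9, 70.6, 51.8 and 41.1 CPM in KO3, against 9.63, 7.85, 9.7 and 7.89 CPM in WT (2.49 ± 0.15, adjusted p = 1.98e-17). E-cadherin, encoded by Cdh1, averaged 802 CPM in KO2, 1100 CPM in KO3 and 846 CPM in WT and was not called.

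Of 20 basement membrane and matrix genes 8 rose and none fell at the thresholds, and for 10 of the 20 KO3 was called above KO2. Col4a1 stood at 27.1, 28.5, 25.4 and 20.4 CPM in KO2, at 63.3, 58.8, 74.6 and 70.2 CPM in KO3, against 7.7, 9.72, 9.49 and 6.61 CPM in WT. The 3 lines did not overlap with each other (2.18 ± 0.14, adjusted p = 4.27e-16). Sparc, a collagen-binding matrix protein, stood at 277 to 356 CPM in KO2 and 438 to 524 CPM in KO3, against 130 to 172 CPM in WT (1.33 ± 0.1, adjusted p = 6.81e-14). The list summed to 1260 to 1580 CPM in KO2 and 1850 to 2010 CPM in KO3, against 1110 to 1170 CPM in WT. With KO2 alone against WT, 4 of the list rose, and with KO3 alone 9 rose.

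Of 34 genes of the actin cytoskeleton and mesenchymal cells, 33 were tested, 17 rose and 1 fell, with a median of 0.76. Cald1, which binds actin and tropomyosin, averaged 255 CPM in KO2, 508 CPM in KO3 and 104 CPM in WT (1.77 ± 0.1, adjusted p = 3.26e-18). S100a6, a calcium-binding protein, stood at 84.3, 90.6, 49.8 and 57.8 CPM in KO2, at 108, 110, 96.4 and 98.7 CPM in KO3, against 9.1, 14.8, 16.3 and 19 CPM in WT (2.47 ± 0.24, adjusted p = 1.93e-09). The annexins Anxa1, Anxa2, Anxa3 and Anxa5, which bind membranes in the presence of calcium, all rose, by 0.9 to 2.72. Ccn1 and Ccn2, matricellular proteins and standard targets of YAP, rose by 2.11 and 2.95. Cald1, Anxa1, Anxa5 and Ccn1 were named after their values were seen. The single fall was Vim, the intermediate filament vimentin, at 51.2, 54.7, 43.1 and 39 CPM in KO2 and 73.6, 79.2, 99.8 and 86.7 CPM in KO3, against 146, 151, 182 and 177 CPM in WT. It was below WT in all 8 libraries (-1.36 ± 0.33, adjusted p = 0.00344). The call was lost in KO3 alone, with libraries 1 and 2 and with libraries 3 and 4, at differences of -1.52 to -0.94.

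Fibroblast markers were looked at beside these genes. Of 16 tested, 6 rose and 2 fell, or 1 without WT library 2, 3 or 4, KO2 library 1 or 4, or KO3 library 1. The 5 defining fibroblast markers summed to 21 to 28.1 CPM in KO2 and 7 to 9.36 CPM in KO3, against 10.7 to 18.8 CPM in WT, so that KO3 was below WT. Col1a2, a chain of collagen I, averaged 8.45 CPM in KO2, 3.17 CPM in KO3 and 0.623 CPM in WT and rose, while Dcn, the proteoglycan decorin, averaged 2.51, 0.61 and 5.39 CPM in the same order and fell. The call of Dcn was lost in KO2 alone, with libraries 1 and 2 and with libraries 3 and 4, at differences of -1.55 to -0.89. The defining haematopoietic markers summed to at most 2.45 CPM in any library.

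Genes of the 2-cell-like state, a rare condition of stem cells that express genes of the early embryo, were low in every library apart from Eif1a. Eif1a averaged 253 CPM in KO2, 199 CPM in KO3 and 237 CPM in WT and was not called. Of 23 listed genes 14 passed the filter, 11 rose and none fell at the thresholds, with a median of 1.16, or 1.07 with members at 0 in WT set to their bound. Zscan4a, of the zinc finger family that marks the state, stood at 3.26, 2.76, 1.86 and 3.54 CPM in KO2, at 0.435, 1.31, 1.5 and 0.678 CPM in KO3, with no read in the 4 WT libraries. Against 3 reads over those 4 libraries (0.146 CPM), Zscan4a was at least 19.6-fold higher in KO2 and at least 6.74-fold higher in KO3. Gm8300 was likewise at least 38.9-fold and 16.5-fold higher in the same lines. Zfp352, an early embryonic zinc finger gene chosen after its values were seen, was at least 15.6-fold higher in KO2 and at least 7.55-fold higher in KO3. KO3 lay below KO2 in 8 of the 14 genes at the thresholds. These genes passed the filter through the depleted libraries or the 2iL libraries, and reads of the Zscan4 and Usp17l families can be split among near-identical copies, so single members are uncertain. With a pseudocount of 5 CPM 3 of the 11 were called.

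Among 28 tested imprinted genes 11 rose and none fell at the thresholds, and 7 rose without WT library 2. Beside H19 and Peg10, the neighbour of Peg10, Sgce, which encodes a sarcoglycan, averaged 6.13 CPM in KO2, 11.6 CPM in KO3 and 1.83 CPM in WT (1.79 ± 0.24, adjusted p = 2.13e-07). Plagl1, a zinc finger factor of the imprinted network, averaged 3.91 CPM in KO2, 3.72 CPM in KO3 and 0.782 CPM in WT (1.44 ± 0.25, adjusted p = 1.9e-05). Cdkn1c, a CDK inhibitor expressed from the maternal allele, stood at 46.1 to 57.5 CPM in KO2 and 44.2 to 67.9 CPM in KO3, against 20.9 to 29.1 CPM in WT (1.11 ± 0.23, adjusted p = 0.000439). Igf2, the paternally expressed neighbour of H19, was listed at 0 in the averages of all 3 lines.

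Germline genes that DNA methylation normally keeps silent split in direction, with 5 of 24 tested higher and 6 lower. Rhox13, an X-linked homeobox gene of germ cells, stood at 27.9, 30.1, 37.3 and 48.5 CPM in KO2, at 12.2, 12.7, 17.1 and 9.49 CPM in KO3, against 4.55, 5.24, 3.1 and 5.54 CPM in WT (2.01 ± 0.2, adjusted p = 8.02e-11). KO2 was above KO3, and KO3 above WT, in every library. Sycp3, of the synaptonemal complex, stood at 23.3, 22.8, 17.7 and 24 CPM in KO2, at 11.3, 8.53, 10.3 and 9.94 CPM in KO3, against 51.3, 60.4, 41.9 and 47.5 CPM in WT (-1.68 ± 0.25, adjusted p = 5.76e-06). Hormad1, which acts on unpaired meiotic chromosomes, averaged 2.27 CPM in KO2, 2.94 CPM in KO3 and 10.4 CPM in WT (-1.72 ± 0.22, adjusted p = 8.85e-08).

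Interferon-inducible and antigen presentation genes formed a further group. Interferons act through response elements in the promoters of genes for antiviral proteins, the immunoproteasome and peptide loading onto MHC class I. Of 28 listed genes 25 were tested, 13 rose and 1 fell, with a median of 0.69, and the list summed to 745 to 793 CPM in KO2 and 632 to 708 CPM in KO3, against 362 to 444 CPM in WT. Promoters of 3 of the genes that rose are shown because they hold a core of that element, GAAANNGAA, searched on both strands after the rise was seen. They run from 250 bases before to 50 after the start (RefSeq, GRCm38.p6), with matches, joined where they overlap, in capitals. Isg15 spans chr4:156200769-156201068 on the minus strand, B2m chr2:122147437-122147736 on the plus strand and Ifitm3 chr7:141010695-141010994 on the minus strand.
Isg15: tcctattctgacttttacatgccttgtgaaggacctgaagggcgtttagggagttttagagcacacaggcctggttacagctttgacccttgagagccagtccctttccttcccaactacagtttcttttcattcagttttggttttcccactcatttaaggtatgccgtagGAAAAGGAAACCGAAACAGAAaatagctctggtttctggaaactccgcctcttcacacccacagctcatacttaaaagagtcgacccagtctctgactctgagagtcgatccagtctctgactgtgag
B2m: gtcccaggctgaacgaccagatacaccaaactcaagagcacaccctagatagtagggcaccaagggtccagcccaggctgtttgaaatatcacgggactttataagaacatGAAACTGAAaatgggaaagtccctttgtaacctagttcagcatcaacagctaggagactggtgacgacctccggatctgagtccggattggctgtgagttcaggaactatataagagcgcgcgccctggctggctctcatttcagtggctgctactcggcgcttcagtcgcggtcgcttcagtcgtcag
Ifitm3: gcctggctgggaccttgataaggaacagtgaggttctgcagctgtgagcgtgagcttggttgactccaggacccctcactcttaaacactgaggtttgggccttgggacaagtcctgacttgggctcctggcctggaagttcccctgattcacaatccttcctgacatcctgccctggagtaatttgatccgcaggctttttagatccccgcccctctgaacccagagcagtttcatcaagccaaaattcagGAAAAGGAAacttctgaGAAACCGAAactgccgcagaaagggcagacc
Isg15 had 3 matches, the first 78 bases before the start, B2m had 1 and Ifitm3 had 2. The core stood in 5 of 12 promoters of list members that rose, in 5 of 10 of list members that did not, and in 943 of 11585 promoters of all tested genes (8.14%). It stood in 10.7% of the promoters of all genes that rose and in 7.05% of those of genes that fell. A match is a description of these letters and not a site.

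Isg15, the ubiquitin-like protein of the antiviral response (chr4:156199424-156200818), stood at 11.3, 14.9, 13.7 and 16.9 CPM in KO2, at 5.44, 2.84, 5.78 and 3.61 CPM in KO3, against 0.175, 0.935, 0.825 and 0.426 CPM in WT. The lines were ordered KO2, KO3, WT with no overlap (2.52 ± 0.24, adjusted p = 2.24e-11). Oasl2, an oligoadenylate synthetase-like protein, stood at 15.3, 15.9, 17.2 and 16.4 CPM in KO2, at 5.44, 5.91, 6 and 4.97 CPM in KO3, against 0.7, 0.374, 0.825 and 2.13 CPM in WT (2.47 ± 0.22, adjusted p = 4.06e-12). Psmb8, a catalytic subunit of the immunoproteasome, stood at 33.6, 39.1, 27.7 and 32.2 CPM in KO2, at 6.09, 7, 6.21 and 6.1 CPM in KO3, against 0.7, 1.68, 3.3 and 2.98 CPM in WT (2.41 ± 0.22, adjusted p = 1.06e-11). For all 3 genes KO3 was called below KO2, by 1.52, 1.39 and 2.21 on the log2 scale (differences -1.52, -1.39 and -2.21). In the whole list KO3 was below KO2 in 7 genes and above it in 3.

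Of the genes of peptide loading, 3 rose and are given here with Tap2, which was not called. B2m, the light chain of MHC class I, averaged 51.9 CPM in KO2, 36.9 CPM in KO3 and 14 CPM in WT (1.57 ± 0.16, adjusted p = 8.31e-10). Tap1, a peptide transporter subunit, averaged 25.4 CPM in KO2, 25.8 CPM in KO3 and 8.42 CPM in WT (1.51 ± 0.24, adjusted p = 6.66e-06). Tapbp, which bridges that transporter to MHC class I, averaged 63.5 CPM in KO2, 46.9 CPM in KO3 and 26.9 CPM in WT (1 ± 0.11, adjusted p = 4e-09). Tap2, the other transporter subunit, averaged 7.63 CPM in KO2, 4.39 CPM in KO3 and 1.98 CPM in WT (1.02 ± 0.45, adjusted p = 0.106). The heavy chains H2-K1 and H2-D1 averaged 47.4 and 16 CPM in KO2, 26.7 and 15.9 CPM in KO3 and 39 and 18.6 CPM in WT, and neither was called.

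Among the upstream factors, Irf1 averaged 176 CPM in KO2, 103 CPM in KO3 and 83.9 CPM in WT (0.67 ± 0.14, adjusted p = 0.000574). Irf9 averaged 2.09 CPM in KO2, 1.76 CPM in KO3 and 4.69 CPM in WT and was the member that fell, though not relative to its neighbours on chromosome 14 (-0.02). Stat2, a transcription factor of the interferon response, was not called, at means of 14.8 CPM in KO2, 30.2 CPM in KO3 and 14.9 CPM in WT. Ifit1, an antiviral RNA-binding protein, averaged 6.17 CPM in KO2, 0.44 CPM in KO3 and 2.11 CPM in WT, on either side of WT. Outside the list Ifitm7 rose with KO3 highest, at 9.66 to 19.9 CPM in KO2 and 28 to 46.1 CPM in KO3, against 0.935 to 2.27 CPM in WT. The genes of peptide loading, Irf1, Stat2, Ifit1 and the heavy chains were named after their values were seen.

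Genes of glycolysis and the hypoxia response gave 9 falls and no rise at the thresholds among 29 tested, with a median of -0.39. Pdk1, a kinase that inhibits pyruvate dehydrogenase, stood at 39.4, 43.2, 26.3 and 30.8 CPM in KO2, at 47.9, 57.1, 58.7 and 57.8 CPM in KO3, against 130, 127, 118 and 128 CPM in WT (-1.51 ± 0.18, adjusted p = 2.48e-08). Bnip3, a mitophagy receptor induced by hypoxia, stood at 18.3, 24.4, 24.2 and 36.3 CPM in KO2, at 11.5, 15.7, 20.4 and 18.7 CPM in KO3, against 53.7, 53.9, 75.5 and 97 CPM in WT (-1.7 ± 0.28, adjusted p = 2.74e-05). Both were below WT in every depleted library. Pfkp, an isoform of phosphofructokinase, averaged 9.51 CPM in KO2, 11.6 CPM in KO3 and 48.8 CPM in WT, while the isoforms Pfkl and Pfkm were not called. Ldha, which makes lactate and was named after its values were seen, averaged 787 CPM in KO2, 547 CPM in KO3 and 1190 CPM in WT (-0.86 ± 0.21, adjusted p = 0.00289). Ldhb, the other lactate dehydrogenase, stood at 38.7, 44.6, 25.4 and 31.4 CPM in KO2, at 25, 28.2, 22.7 and 19.9 CPM in KO3, against 131, 133, 96.8 and 108 CPM in WT (-1.99 ± 0.19, adjusted p = 8.14e-10). Hk2, the hexokinase of proliferating cells, averaged 206 CPM in KO2, 307 CPM in KO3 and 205 CPM in WT and was not called. The list summed to 3280 to 3510 CPM in KO2 and 2630 to 2910 CPM in KO3, against 3900 to 4630 CPM in WT.

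Further metabolic and cell cycle lists were counted in the same way. Of 34 nuclear genes of oxidative phosphorylation 1 fell, and of 33 ribosomal protein genes and 23 genes of the amino acid and unfolded protein responses none was called. Sterol and fatty acid genes gave 1 rise and 1 fall among 28 (3 and 2 without WT library 3), but KO3 was called above KO2 in 14 of them, and the list summed to 3420 to 3880 CPM in KO2 and 5380 to 5800 CPM in KO3, against 3930 to 4300 CPM in WT. Of 22 genes of G1 and S phase 2 rose (Ccnd2 and Cdkn1c) and 5 fell, or 3 without WT library 2, WT library 4 or KO2 library 4. Ccne1, a cyclin that starts DNA replication, averaged 133 CPM in KO2, 132 CPM in KO3 and 231 CPM in WT (-0.8 ± 0.18, adjusted p = 0.00135). Its call was lost with libraries 1 and 2 and with libraries 3 and 4, at a difference of -0.8 in each. Of 22 G2 and M genes 1 fell.

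Of 21 targets of p53 4 rose and none fell at the thresholds. Cdkn1a, the CDK inhibitor p21, stood at 313, 278, 184 and 192 CPM in KO2, at 312, 289, 258 and 243 CPM in KO3, against 122, 125, 93.3 and 76.3 CPM in WT (1.31 ± 0.19, adjusted p = 3.62e-06). All 8 depleted libraries were above WT. Mdm2, which marks p53 for degradation, averaged 309 CPM in KO2, 379 CPM in KO3 and 184 CPM in WT (0.9 ± 0.1, adjusted p = 4.53e-09). Of the small heat shock proteins, Cryab averaged 8.21 CPM in KO2, 17.1 CPM in KO3 and 2.17 CPM in WT (2.05 ± 0.27, adjusted p = 2.64e-07). Hspb1 averaged 83 CPM in KO2, 142 CPM in KO3 and 49 CPM in WT (1.14 ± 0.18, adjusted p = 6.28e-06). In that list 4 of 14 rose, and 2 without WT library 4. Of 18 tested immediate early genes 6 rose, and with each line alone 2 of the list rose in KO2 and 9 in KO3. The call of Jun (adjusted p = 0.0498) was lost without any 1 day 1 library other than WT library 4. That of Junb was lost without WT library 1 or 2, KO2 library 3 or 4, or KO3 library 4.

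The depleted lines differed from each other in 2542 genes (15%), of which 1390 were higher (8.19%) and 1152 lower (6.79%) in KO3. Among the 2005 genes called against WT the number was 588. Beside Esrrb, the largest excess in KO3 was that of Enox1, a cell surface oxidase gene, with 17.4 to 28.7 CPM in KO3 and 1.91 to 4.14 CPM in KO2 (2.61, adjusted p = 2.1e-08). Cdh3, which encodes P-cadherin, stood at 26.8 to 50.1 CPM in KO3 and 4.91 to 8.62 CPM in KO2 (2.43, adjusted p = 9.61e-08), with WT between them at 16.9 to 21.1 CPM. Nefl, the light neurofilament, stood at 65.3 to 99.5 CPM in KO3 and 13.1 to 17.7 CPM in KO2 (2.42, adjusted p = 1.17e-09), again with WT between them at 29.2 to 40.4 CPM. Enox1 and Nefl lie on chromosome 14, in the 50 genes that are low in KO2 and not in KO3 (described below). The line averages hid Cdh3 and Nefl, which differed from WT by -0.21 and 0 on average.

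In the other direction, Xlr3c stood at 1.74 to 9 CPM in KO3 and 61.8 to 109 CPM in KO2 (-4.02, adjusted p = 2.59e-12). Lgals3bp, a secreted galectin-binding glycoprotein, stood at 0.452 to 3.21 CPM in KO3 and 20.7 to 31.4 CPM in KO2, against 1.93 to 4.69 CPM in WT (KO3 minus KO2 -3.42, adjusted p = 2.59e-12). Fgf8, an FGF ligand of the gastrulating embryo, stood at 0 to 1.58 CPM in KO3 and 6.9 to 15.4 CPM in KO2, against 0.525 to 1.68 CPM in WT (KO3 minus KO2 -2.79, adjusted p = 1.34e-07). KO2 was the line that stood apart for both. T, the mesoderm factor brachyury, was detected at 0 to 2.76 CPM in KO2, at 0 to 0.214 CPM in KO3 and at 0 to 0.187 CPM in WT.

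The depleted lines also differed from WT in 2iL, before AloXR, and the change of that difference was tested. It was called in 1553 genes (9.15%), with 812 (4.79%) more positive and 741 (4.37%) more negative at day 1 than in 2iL. Without WT 2iL library 3 the number was 2507, and without WT 2iL library 1 it was 1092. Of the 1071 genes higher at day 1, 371 were also higher in 2iL (34.6% of the day 1 list and 27% of the 2iL list, to which 8.11% of tested genes belong), 657 were not called in 2iL and 43 were lower there. Of the 934 lower at day 1, 321 were also lower in 2iL (34.4% and 24.9%, with 7.6% of tested genes lower in 2iL), 589 were not called and 24 were higher there. At day 3, 599 of the genes higher at day 1 were called higher as well (55.9% of the day 1 list and 32.7% of the day 3 list), and 401 of the lower genes were called lower (42.9% and 36.4%), where 10.8% of tested genes were higher and 6.49% lower. At day 5, 341 were again higher (31.8% of the day 1 list and 22.6% of the day 5 list) and 377 again lower (40.4% and 19%), with 8.89% of tested genes higher and 11.7% lower, and 62 and 50 were called in the opposite direction.

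**Figure D4:**
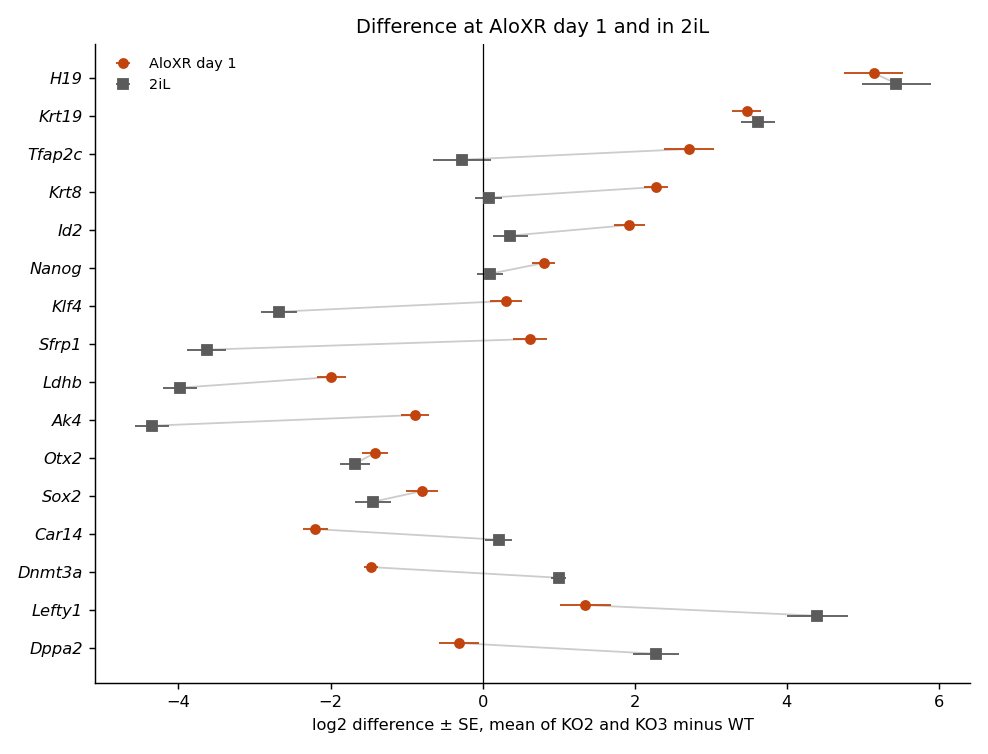
Difference between the depleted lines and WT (log2, with standard errors) at AloXR day 1 (circles) and in 2iL (squares) for 16 genes. H19 and Krt19 lie at about the same place in both media, Tfap2c, Krt8 and Id2 are high at day 1 and near 0 in 2iL (-0.27, 0.08 and 0.36), and Dnmt3a and Lefty1 lie further down at day 1 than in 2iL.

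Some of the largest day 1 differences were as large in 2iL. H19, Krt19 and Upp1 differed from WT by 5.44, 3.62 and -4.54 in 2iL, and their change to day 1 was not called. Other genes differed from WT at day 1 and not in 2iL. Tfap2c differed by 2.71 at day 1 and -0.27 in 2iL (change 2.98 ± 0.5, adjusted p = 7.1e-05), and Krt8 by 2.28 and 0.08 (2.2 ± 0.24, adjusted p = 4.37e-09). Anxa2 differed by 2.27 at day 1 and 0.37 in 2iL (1.9 ± 0.27, adjusted p = 1.14e-06), and Id2 by 1.93 and 0.36 (1.57 ± 0.31, adjusted p = 0.000507). Slc35d3, of the nucleotide sugar transporter family, differed by -2.09 at day 1 and 0.05 in 2iL (-2.14 ± 0.28, adjusted p = 1.65e-07). Cdkn1a and Mdm2 differed by 1.31 and 0.9 at day 1 and by 0.26 each in 2iL, with changes called at adjusted p of 0.0155 and 0.00501.

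In a further set the difference turned round or became smaller at day 1. Dnmt3a was above WT in 2iL by 1 and below it at day 1 (change -2.47 ± 0.14, adjusted p = 7.31e-18). Nkx6-2, a homeobox gene, was below WT in 2iL (-2.22) and above it at day 1 (1.85), a change of 4.07 ± 0.32 (adjusted p = 4.7e-13). Lefty1 was above WT in both, by 1.35 at day 1 and 4.4 in 2iL (change -3.05 ± 0.53, adjusted p = 0.000154). Dppa2, an epigenetic priming factor of the early embryo, differed by -0.31 at day 1 and 2.28 in 2iL (-2.59 ± 0.4, adjusted p = 8.8e-06). Klf4 differed by 0.31 at day 1 and -2.68 in 2iL (2.98 ± 0.32, adjusted p = 3.67e-09), and Ak4, a mitochondrial adenylate kinase, by -0.89 and -4.35 (3.46 ± 0.3, adjusted p = 6.32e-12).

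The course of WT cells, taken without the day 1 libraries, gave a further comparison. From 2iL to day 3, WT cells raised 21% and lowered 20.6% of tested genes. For the depleted lines against WT at day 1, the shares of all tested genes were 6.31% higher and 5.5% lower. Of the 200 genes with the largest WT gain from 2iL to AloXR day 3, 35 were higher and 35 lower in the depleted lines at day 1 (17.5% each), with a median difference of -0.01. Their median level was 14.8 CPM in KO2, 12.8 CPM in KO3 and 14.5 CPM in WT at day 1, between the WT medians of 1.01 CPM in 2iL and 29.9 CPM at day 3. Of the 200 genes with the largest WT loss, 28 were higher and 38 lower (14% and 19%), with a median of -0.07, and their median level was 4.78 CPM in KO2, 4.67 CPM in KO3 and 4.05 CPM in WT. Genes of both lists were thus called in both directions. Among gained genes, Tagln, an actin-binding protein of smooth muscle, averaged 6.33 CPM in KO2, 7.8 CPM in KO3 and 0.76 CPM in WT, whereas Stk39, a stress-activated kinase, averaged 13.9, 5.81 and 34.7 CPM in the same order. Among lost genes, Gadd45b, a stress-induced growth arrest gene, averaged 11.4 CPM in KO2, 16.5 CPM in KO3 and 2.16 CPM in WT, whereas Rpl39l, a germ cell paralogue of a ribosomal protein, averaged 30.7, 8.31 and 75.5 CPM. Stk39 and Gadd45b were chosen after their values were seen.

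Neighbouring genes shifted together on chromosome 14. Among 265 genes there with at least 10 CPM, 96 fell and 12 rose. In a contiguous stretch of 117 of them, from Ogdhl to Slc25a37 (chr14:32322019-69285112), the median difference from WT was -0.82 in KO2 and -0.95 in KO3, and 86 genes fell and 3 rose. The stretch joins 93 overlapping windows of 25 genes, so genes near its ends need not be low. Ogdhl differed from WT by 0.09 in KO2 and 0.08 in KO3, and Slc25a37 by -0.76 and 0.09. The stretch did not end at the same place in both lines. Where the running median of 25 genes was below -0.4, KO2 ran without a break over 143 genes from Gm7324 to Rpl36a-ps1, and KO3 over 97 genes from Wapl to Pbk. The runs of both lines share the genes from Gm7324 to Pbk. In the 50 genes past the end in KO3, the median was -0.8 in KO2, with 46 genes below 0, and 0.08 in KO3, with 20 below 0.

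**Figure D5:**
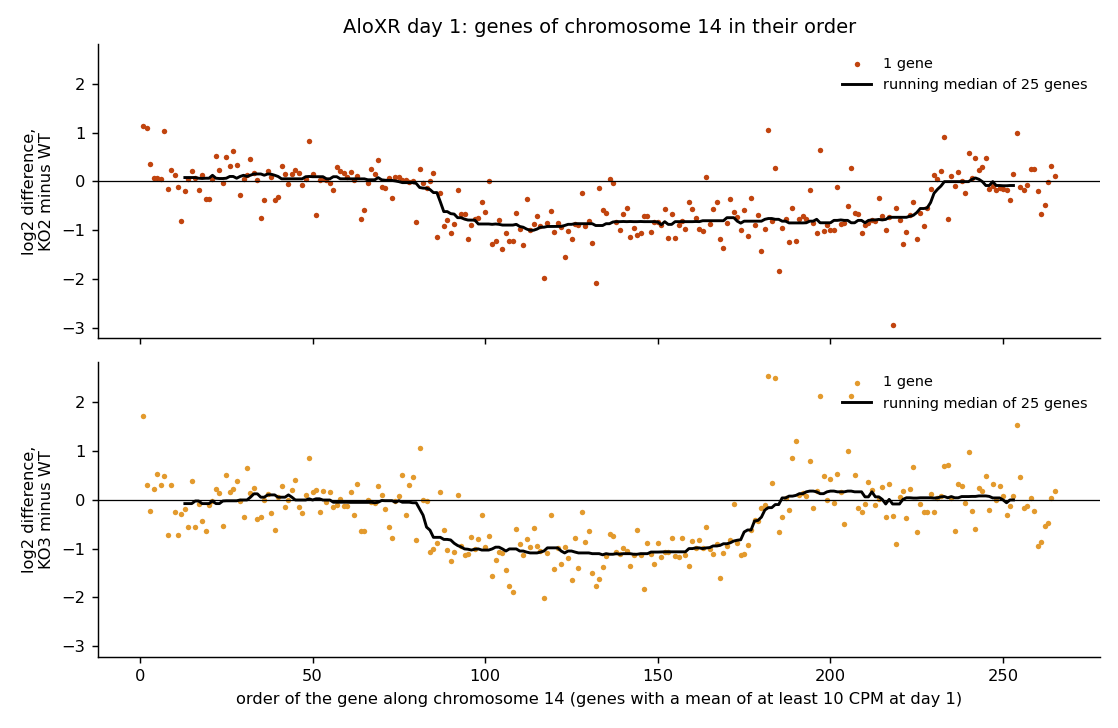
Difference from WT at day 1 (log2) of KO2 (upper panel) and KO3 (lower panel) for 265 genes of chromosome 14 in gene order, with a running median over 25 genes. Both lines run low over a shared stretch, and the low run goes on for 50 genes in KO2 past its end in KO3.

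Otx2, Sall2, Ndrg2, Bmp4, Tdh and Irf9 lie on chromosome 14. Relative to their neighbours Sall2 (-1.03, adjusted p = 2.76e-08) and Ndrg2 (-1.5, adjusted p = 6.74e-06) stayed called, and the other 4 did not. Tdh, the threonine dehydrogenase on which mouse stem cells rely, differed from WT by -0.8 ± 0.25 (adjusted p = 0.0171) and from its neighbours by 0. Its call was also lost with libraries 1 and 2, with libraries 3 and 4 and in KO2 alone. Chromosomes 6 and 8 had medians of 0.31 each in KO3 and of -0.01 and -0.09 in KO2. Chromosomes 2, 4 and 13 had medians of -0.24, -0.25 and -0.27 in KO2 and of -0.05, -0.05 and -0.08 in KO3. Their genes with at least 10 CPM gave 37, 32 and 22 falls and 10, 9 and 6 rises in the same order. Col4a1 and Col4a2, which KO3 had most of, lie on chromosome 8, as does Cdh3. Peg10, Sgce, Ccnd2 and Cald1, which were also highest in KO3, lie on chromosome 6.

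Promoters of the genes that fell were searched for TNAAGGTCA, the extended site that estrogen-related receptors bind, on both strands. It stood in 7 of 709 promoters of genes that fell (0.987%), in 5 of 731 of genes that rose (0.684%) and in 99 of 11585 of all tested genes (0.855%). The shares were close to each other and rest on few promoters. The match, in capitals, is shown for the 2 genes that fell most among those that hold it, Msrb2, a methionine sulfoxide reductase (chr2:19371386-19371685, plus strand, difference -1.07), and Rpl10l, a germ cell paralogue of a ribosomal protein (chr12:66284352-66284651, minus strand, difference -0.77).
Msrb2: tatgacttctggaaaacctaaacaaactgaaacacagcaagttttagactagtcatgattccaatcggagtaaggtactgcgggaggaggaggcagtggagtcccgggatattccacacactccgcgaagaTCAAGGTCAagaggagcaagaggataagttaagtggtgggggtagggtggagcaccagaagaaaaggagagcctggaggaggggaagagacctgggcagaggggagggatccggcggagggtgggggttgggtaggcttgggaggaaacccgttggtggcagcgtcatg
Rpl10l: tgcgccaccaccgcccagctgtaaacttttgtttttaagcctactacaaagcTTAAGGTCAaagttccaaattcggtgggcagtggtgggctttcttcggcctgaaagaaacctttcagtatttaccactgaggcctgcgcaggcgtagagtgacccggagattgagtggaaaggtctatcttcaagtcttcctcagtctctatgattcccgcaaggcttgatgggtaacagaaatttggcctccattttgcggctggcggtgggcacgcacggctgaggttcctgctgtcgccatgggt
The matches begin 119 and 198 bases before the start. A window without these letters says nothing of Esrrb binding.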

How the data were processed

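RNA of 41 libraries in 12 groups of line and medium was read by QuantSeq. The aligner was STAR 2.7.6a and the counter featureCounts 2.0.1 of Subread, with the build GRCm38, per the submitters' processing notes. The authors deposited 1 table of CPM (assigned reads scaled to a sum of 1000000 in every library) for 55487 genes, and no other step is stated. The strand setting of the counting is not given in the sources used here, so overlapping and antisense genes are uncertain. All 766190 values above 0 came out as whole reads (100.0%, tolerance 0.01 reads), which gave each library's depth and the counts for edgeR. Symbols and positions come from GENCODE M21 (55227 genes), and promoters from RefSeq (GRCm38.p6, 250 bases before to 50 after the start).

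Groups were taken from the labels. limma 3.58.1 (R 4.3.3) was fitted on log2(CPM + 1) to all 41 libraries with a mean for each group, trended and robust variances and 29 residual degrees of freedom, for 16967 genes with at least 1 CPM in 3 libraries. Every adjusted p not otherwise named is limma's with Benjamini-Hochberg adjustment over those genes, and errors are SE. A gene was called at adjusted p under 0.05 and at least 1.5-fold (0.58 on the log2 scale), with the same sign in KO2 and KO3. Position-centred differences subtract the median of 51 neighbouring genes. The fit was tested on simulated data with known changes. Alternatives were other pseudocounts (0.5 and 5 CPM), filters, TMM and quantile scaling, edgeR 4.0.16, the day 1 groups alone, each line alone and leaving out each library. Python 3.11.15 with pandas 2.3.3, numpy 2.4.6 and matplotlib 3.10.9 made the summaries and plots. Intervals and floors (3 reads) cover counting error only.

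The genes named are Esrrb and Esrra, a fixed set of reference genes, the 15 largest rises and falls with at least 5 CPM in a group, up to 4 called members in each direction of 39 gene lists, the 8 largest changes in each direction against 2iL and the 5 largest between KO3 and KO2. Other genes are marked as chosen after their values were seen, save members given as not called beside their list. The members and lists were chosen with earlier results of these data known, and many lists share genes.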

Additional observations from a re-analysis of the deposited data

Results flagged for a closer look

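Single libraries stood apart from the other 3 of their group in 10 of 165 groups checked, where chance flags about 1 in 20. These were Klf4 in WT library 3 (5.98 CPM), Tfcp2l1 in KO2 library 4 (3.82 CPM), Prdm14 in KO2 library 4 (0.545 CPM), Pou5f1 in WT library 1 (15.4 CPM) and Otx2 in KO3 library 1 (191 CPM). The others were Pou3f1 in KO3 library 2 (376 CPM), T in KO3 library 3 (0.214 CPM), Gm21761 in KO2 library 4 (106 CPM), Gm8994 in WT library 3 (0.206 CPM) and Efhc2 in WT library 4 (36 CPM). KO2 library 4 holds 3 of the 10. The values of T and Gm8994 amount to single reads.

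Among the reference genes, the depleted lines differed from each other at day 1, as KO3 minus KO2 on the log2 scale, by 3.06 in Esrrb, 1.72 in Gata6, 1.47 in Klf5, 1.39 in Tbx3, 1.22 in Etv4 and 0.62 in Tfcp2l1. KO3 was the lower line in T (-1.05), Klf2 (-1), Dnmt3a (-0.74) and Lef1 (-0.64). In Esrrb, Klf5, Etv4, Tfcp2l1, T and Lef1 the mean of WT lay between those of KO2 and KO3.

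The difference of the depleted lines from WT changed between 2iL and day 1. It was more positive at day 1 in Klf4 (2.98), Esrrb (1.69), Tbx3 (1.55), Gata6 (1.55), Tfcp2l1 (1.26), Lef1 (1.14), Klf2 (0.9), Dusp6 (0.88) and Nanog (0.7). It was more negative at day 1 in Lefty1 (-3.05), Dnmt3a (-2.47) and Fgf5 (-0.64).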

How the results depend on the processing

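No paired analysis was possible because the labels carry no replicate numbers and nothing ties a library of one line to a library of another. For the day 1 difference from WT, 2005 genes were called, and 1794 to 2019 when 1 library was left out. The count was 848 with a pseudocount of 5 CPM, 1146 with libraries 1 and 2 of each line and 1283 with libraries 3 and 4, both sets chosen after seeing the data and holding fewer samples. For day 1 against 2iL, 1553 were called, 922 and 963 with those same libraries, and 1092 to 2507 when 1 library was left out. WT 2iL library 1 gave the lowest value and WT 2iL library 3 the highest, and without the 2iL libraries numbered 3 the count was 2206. For KO3 against KO2, 2542 were called, 1231 with a pseudocount of 5 CPM, 1301 and 1450 with those libraries, and 2124 to 2509 when 1 library was left out. TMM scaling shared 1986 of the 2005 calls (99.1%), edgeR 1843 (91.9%), position-centring 1564 (78%) and the pseudocount of 5 CPM 843 (42%).

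Among single genes, Tdh changed to 0 relative to its neighbours on chromosome 14. Against the average of the lines, the sign turned in KO2 alone for Nlrp4c (1.46) and in KO3 alone for Esrrb (1.11), Klf5 (0.71), Etv4 (0.59), Cdh3 (1.01), Nefl (1.21) and Lgals3bp (-0.78). No sign turned when any 1 library was left out, and 64 of the values found that way lost their call. A pseudocount of 5 CPM ended 28 calls, position-centring 10, no filter 8, edgeR 3, and TMM scaling none. The filter of 5 CPM removed 7 named genes from the test. The pseudocount of 5 CPM lowered the number of rises in the 2-cell list to 3 of 11, in the primitive endoderm list to 4 of 8, in the basement membrane list to 5 of 8 in the immediate early list to 2 of 6 and in the primed epiblast and mesendoderm lists to 1 of 5 each. Counts of 1 to 3 genes in a list often moved by 1 when 1 library was left out. The falls in the G1 and S list came to 0 with libraries 1 and 2 and to 2 with libraries 3 and 4. With libraries 1 and 2 the primitive endoderm list had 5 rises, the glycolysis list 5 falls and the germline list 2 rises and 2 falls. With libraries 3 and 4 the basement membrane list had 4 rises and the imprinted list 7. No scaling moved the median of all genes by 0.1 or more. Apart from the fewer libraries of those subsets and the larger pseudocount's effect on low genes, the cause was not tested. Genes under the floor of 0.525 to 0.818 CPM in a library cannot be told from 0.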

Other observations

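Genes of later lineages differed widely in level at day 1, and some of them rose. Krt18, of the primed epiblast list, averaged 93.8 CPM in KO2, 82.8 CPM in KO3 and 42.6 CPM in WT, whereas other members were near the detection floor in WT. Of 16 tested genes of the primed epiblast 5 rose and none fell at the thresholds, with a median difference of 0.52 against 0.015 over all genes. Lhx1, a LIM homeobox gene of the anterior primitive streak, averaged 1.72 CPM in KO2, 3.32 CPM in KO3 and 0.181 CPM in WT (log2 difference 1.39 ± 0.29, limma adjusted p = 0.000304). Foxa2, the forkhead factor of endoderm, averaged 2.73 CPM in KO2, 4.53 CPM in KO3 and 0.586 CPM in WT (1.4 ± 0.37, adjusted p = 0.00474). Neither was called with libraries 1 and 2 alone, nor was Wnt3 with either pair of libraries. Wnt3, the ligand that starts gastrulation, averaged 7.07 CPM in KO2, 5.15 CPM in KO3 and 2.38 CPM in WT (1.03 ± 0.27, adjusted p = 0.004). Of 17 mesendoderm genes 5 rose and 1 fell. With a pseudocount of 5 CPM 1 of the list rose, as in the primed epiblast list. Of 17 neuroectoderm genes Nes, the intermediate filament nestin, was the only one called, at 68.4 CPM in KO2, 81.5 CPM in KO3 and 31.9 CPM in WT (1.19 ± 0.15, adjusted p = 9.32e-08). The 5 of 15 germ cell genes that rose were Tfap2c, Dppa3, Ifitm3, Ifitm1 and Klf2, each of which also stands in another list.

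Some metabolic genes outside glycolysis fell. Shmt2, the mitochondrial serine hydroxymethyltransferase of the folate cycle, averaged 55.1 CPM in KO2, 61.9 CPM in KO3 and 94.1 CPM in WT (-0.68 ± 0.13, adjusted p = 6.97e-05). Gsta4, a glutathione transferase that clears lipid peroxidation products, averaged 139 CPM in KO2, 99.7 CPM in KO3 and 258 CPM in WT (-1.14 ± 0.09, adjusted p = 3.62e-13). In the sterol list, Mvd, a decarboxylase of the mevalonate pathway chosen after its values were seen, averaged 321 CPM in KO3 and 64.2 CPM in KO2, with WT at 88.7 CPM.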
